A study of Mus musculus with 2 samples.

Results

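The genes described here are 10 components of the Nodal signalling pathway in ES-E14 cells, chosen by name. They are the ligands Nodal and Gdf3, the co-receptor Tdgf1 (Cripto), the receptors Acvr1b and Acvr2b, the receptor-activated SMADs Smad2 and Smad3, and the feedback inhibitors Lefty1, Lefty2 and Smad7. The members were the rows of the gene and transcript tables whose identifiers carry these symbols in the GENCODE M21 annotation, and all 10 were found among 43346 genes. ES-E14 is a mouse embryonic stem cell line from a male embryo of the 129/Ola strain, and its total RNA was sequenced in 1 group of 2 libraries with no treatment named in the labels. The libraries are labelled biological replicates 1 and 2 but cite the same source sample, so their spread may be only technical, and 1 group allows no comparison between conditions. Depth was 43163300 expected counts on genes in replicate 1 and 45573512 in replicate 2. An expected count is an estimated read number that can be fractional where a read matches several genes.

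Nodal is a secreted ligand of the TGF-beta family. It binds a complex of a type I receptor such as ACVR1B and a type II receptor such as ACVR2B, and it needs a co-receptor of the Cripto family that is anchored at the cell surface. The activated receptor phosphorylates SMAD2 and SMAD3, which join SMAD4, enter the nucleus and act with partners such as FOXH1. Lefty1 and Lefty2 are target genes of the pathway, and the proteins they encode block the ligand and its co-receptor, which makes a feedback loop. In the early mouse embryo the pathway patterns the body axes and helps to form endoderm and mesoderm, and mouse embryonic stem cells in culture make Nodal themselves.

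All 10 genes reached 1 TPM in both libraries, where TPM is the abundance of a gene corrected for its length and scaled to a fixed total per library. Of 21474 protein-coding genes, 9942 (46.3%) did so. The mean levels over both libraries ran from 2.92 TPM for Smad3 to 258 TPM for Tdgf1. Absolute levels hold for this total only, since after rescaling TPM to the nuclear protein-coding genes alone the same genes stood at 13.9 and 1286. In order of mean level the genes were Tdgf1, Lefty1, Nodal, Gdf3, Lefty2, Smad7, Acvr2b, Smad2, Acvr1b and Smad3. Neighbours whose values overlapped between the libraries were Nodal with Gdf3, Gdf3 with Lefty2, Acvr2b with Smad2, and Smad2 with Acvr1b. The secreted or surface-anchored components were the 5 highest, and the receptors and receptor-activated SMADs the 4 lowest. The summed level of the 10 genes was 632.73 TPM in replicate 1 and 389.47 TPM in the other library, and Tdgf1 made up 50.3% and 50.8% of it.

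**Figure D1:**
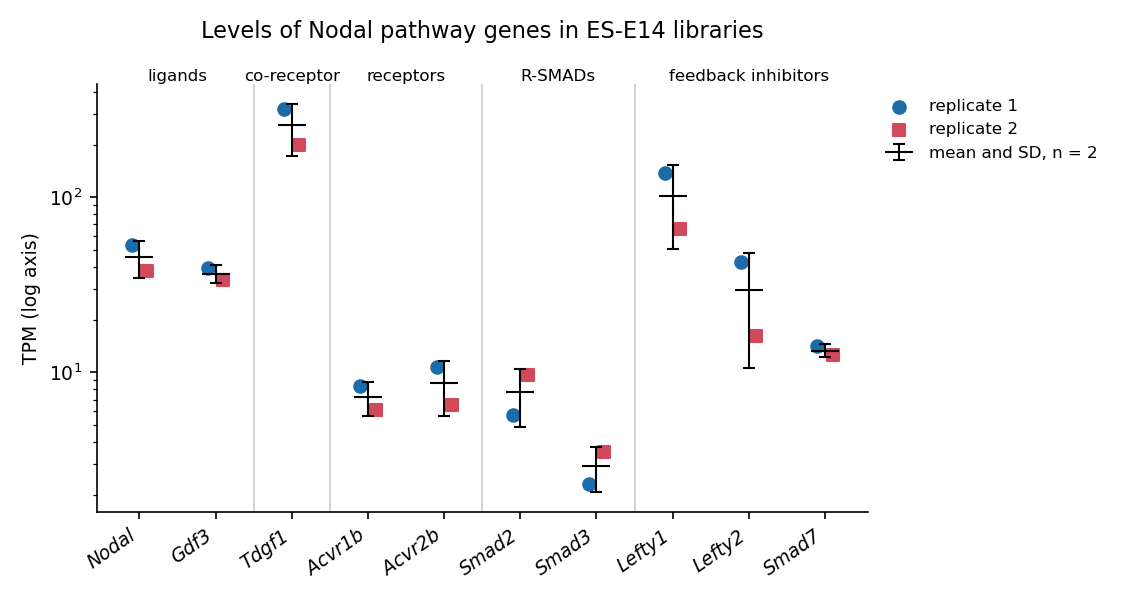
Level of each of the 10 genes in both libraries, grouped by role, in TPM on a logarithmic axis. Each point is 1 library, the bars are the mean and SD (n = 2), and R-SMADs are receptor-activated SMADs. The 5 highest genes are Tdgf1, Lefty1, Nodal, Gdf3 and Lefty2, and Smad3 is the lowest at 2.32 and 3.52 TPM.

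Markers of embryonic stem cells fitted the label, with 8 of 8 at 1 TPM or more in both libraries and a summed level of 989.11 and 1061.34 TPM. Feeder fibroblast markers summed to 48.53 and 156.2 TPM, with 5 of 9 at 1 TPM in both libraries and Lum at 0. Endoderm markers summed to 1.29 and 6.59 TPM with 0 of 6 past that level, mesoderm markers to 1.18 and 4.02 TPM with 0 of 5, and neuroectoderm markers to 19.05 and 35.12 TPM with 2 of 4. The fibroblast markers and those of all 3 germ layers had higher sums in replicate 2, as did the embryonic stem cell markers. Higher there were 7 of 9 fibroblast, 6 of 6 endoderm, 4 of 5 mesoderm, 3 of 4 neuroectoderm and 5 of 8 embryonic stem cell markers. Of all genes whose mean reached 1 TPM, only 28.5% stood lower in replicate 2, so most genes were higher there on this scale. Acta2 (33.04 and 100.23 TPM) and Tubb3 (13.28 and 27.12 TPM) made up most of the fibroblast and neuroectoderm sums, and Thy1 and Pax6 stood lower. Most of the 10 genes stood lower in replicate 2, and the part of these cell types in the differences was not tested. In bulk RNA, fewer cells that make a transcript and less transcript per cell cannot be told apart.

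The ligand Nodal (ENSMUSG00000037171, chromosome 10, 61417972 to 61425338, plus strand, mm10) stood at 53.19 and 37.86 TPM in replicates 1 and 2, or 45.5 ± 10.8 TPM (SD, n = 2). It was above 96.8% of protein-coding genes and lower in replicate 2 by a ratio of 0.712 (95% counting interval 0.688 to 0.737). Intervals here cover counting error only. Its 3-exon transcript was the only one listed for the gene, with 8011 and 5426 expected counts.

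Gdf3 encodes a related ligand that can form mixed dimers with Nodal and is a known marker of pluripotent cells (ENSMUSG00000030117, chromosome 6, 122605403 to 122610087, minus strand). It stood at 39.59 and 33.78 TPM, or 36.7 ± 4.11 TPM (SD, n = 2). Its ratio of 0.853 (0.822 to 0.886) was nearer to 1 than that of Nodal. Within a library, Gdf3 was 0.744 times Nodal in replicate 1 and 0.892 times in replicate 2. Such a ratio between genes of 1 library does not depend on how the libraries are scaled to each other, and the ratio of the counts of Gdf3 and Nodal changed by a factor of 1.20 (95% interval 1.14 to 1.26). Each factor given below for a pair of genes is likewise the change of their count ratio, replicate 2 over replicate 1. It can differ from the change of the TPM ratios, which also carry the effective lengths, and for Smad3 by more than the counting interval.

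Tdgf1 (ENSMUSG00000032494, chromosome 9, 110939603 to 110946158, minus strand) encodes the co-receptor Cripto and was the highest of the 10 genes. It stood at 318.39 and 197.95 TPM, or 258 ± 85.2 TPM (SD, n = 2), above 99.4% of protein-coding genes. The co-receptor transcript exceeded the Nodal transcript 5.99-fold in replicate 1 and 5.23-fold in replicate 2. The count ratio of Tdgf1 to Nodal changed by a factor of 0.873 (0.841 to 0.907), so the co-receptor stood lower in replicate 2 by slightly more than its ligand did.

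The genome also holds a processed pseudogene of Tdgf1, a copy without introns, and the sequences of both matter for the value of Tdgf1. Tdgf1-ps1 (ENSMUSG00000095834) is a single exon at chromosome 16, 3730510 to 3731022, plus strand. Over 512 aligned bases it differed from the coding sequence of Tdgf1 at 6 positions (98.8% identity), and the longest stretch without a difference was 154 bases. Counted from 1 at the A of the start codon, with the base of Tdgf1 first, the substitutions were C50T, T150C, T281C, G436A, C443T and C464T. The stretch from coding base 365 to 464, which holds 3 of them, shows how similar the copies are. It lies at chr9:110940756-110942364 on the minus strand for Tdgf1, where an intron interrupts it, and at chr16:3730874-3730973 on the plus strand for the pseudogene. Capitals mark the substituted bases, and both are written 5′ to 3′ from GENCODE M21 transcripts (GRCm38).
Tdgf1: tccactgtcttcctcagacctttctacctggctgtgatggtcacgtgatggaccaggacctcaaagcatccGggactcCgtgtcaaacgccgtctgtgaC
Tdgf1-ps1: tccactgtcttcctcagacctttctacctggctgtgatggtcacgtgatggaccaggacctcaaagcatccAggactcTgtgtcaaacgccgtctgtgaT

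A read that lies within the aligned stretch and covers none of these positions matches both genes, so the split of such reads between them is uncertain. The tables gave Tdgf1-ps1 8498 expected counts in replicate 1 and 4012 in replicate 2, which was 16.3% and 13.4% of the counts of both loci. Because the pseudogene is short, with a deposited length of 516 bases against 1925 for Tdgf1, those counts came to 304.04 and 152.04 TPM. On the TPM scale the pseudogene was thus listed almost as high as the gene in replicate 1. Summing the counts of the 2 loci gave 52246 and 29892. With TMM factors, which scale the libraries by the bulk of their genes, the summed log2 difference was -1.03, against -0.99 for Tdgf1 alone. The lower count of Tdgf1 in replicate 2 was therefore also seen in the sum. A further copy, Tdgf1-ps2, had 4 and 3 expected counts.

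**Figure D2:**
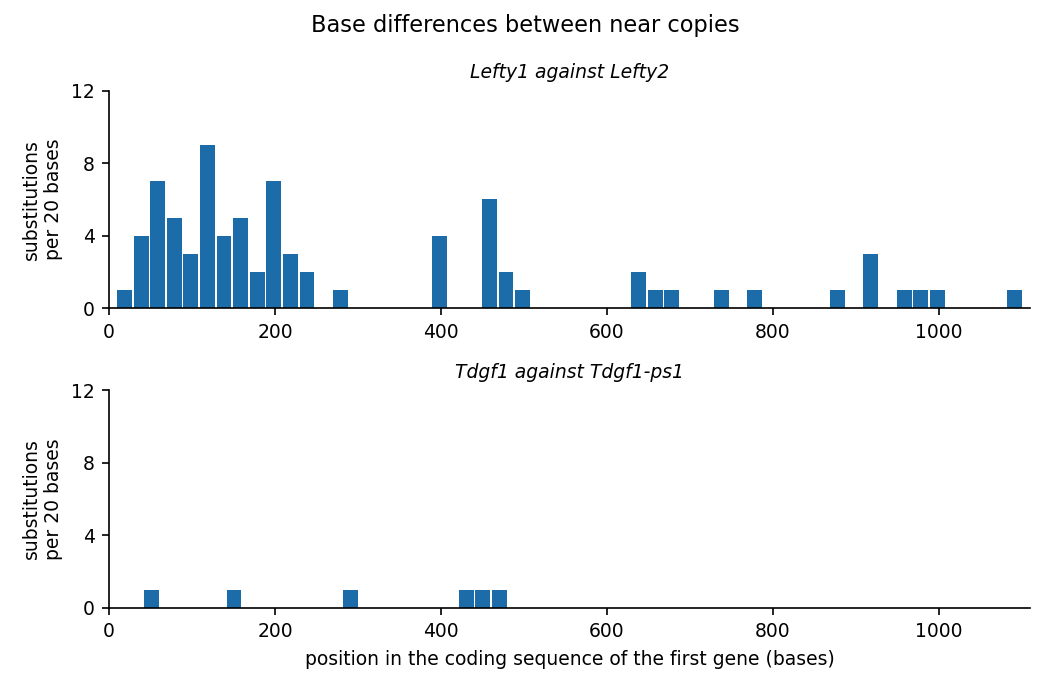
Substitutions between the coding sequences of Lefty1 and Lefty2, and between those of Tdgf1 and Tdgf1-ps1, counted per 20 bases along the coding sequence (horizontal, in bases from the start codon). Of the 80 substitutions between Lefty1 and Lefty2, 52 lie in the first 250 coding bases, and the panel of Tdgf1 holds 6 in all.

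The promoter of Tdgf1 held an exact repeat of 19 bases, at -50 and -31 from the transcription start, and is shown for that. RefSeq promoters (GRCm38.p6) matched 5 of the 10 genes, namely Nodal, Tdgf1, Acvr1b, Acvr2b and Smad3. The longest exact repeats in the other 4 were 9 to 12 bases. The 250 bases before the start of Tdgf1, at chr9:110946159-110946408 on the minus strand, are given 5′ to 3′ with the letters GGGCGTGG, a core bound by factors of the KLF family, in capitals.
Tdgf1 promoter: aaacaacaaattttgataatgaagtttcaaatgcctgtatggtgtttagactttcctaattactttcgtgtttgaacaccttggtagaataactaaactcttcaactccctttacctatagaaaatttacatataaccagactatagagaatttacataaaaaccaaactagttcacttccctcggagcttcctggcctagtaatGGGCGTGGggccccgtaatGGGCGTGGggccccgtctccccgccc

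These letters occurred at -45 and -26, once in each copy of the repeat, and the motif and the octamer below were searched after the sequences had been seen. On either strand GGGCGTGG was present in 1 of the 5 promoters and in 5.33% of 32851 promoters, each read from 250 bases before to 50 after the start. The FOXH1 letters AATCCACA and AATACACA, the SMAD letters GTCTAGAC and CAGACA, and the octamer ATGCAAAT were in 0 of the 5. Over all promoters their shares were 0.855%, 0.980%, 0.213%, 21% and 1.74%. A match describes letters only and shows no binding, and these windows do not cover the enhancers of these genes.

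Both receptors stood well below the ligands and the co-receptor. Acvr1b (ENSMUSG00000000532, chromosome 15, 101174067 to 101213684, plus strand), the type I receptor kinase also known as ALK4, stood at 8.34 and 6.10 TPM, or 7.22 ± 1.58 TPM (SD, n = 2). Acvr2b (ENSMUSG00000061393, chromosome 9, 119402118 to 119434995, plus strand), a type II receptor, stood at 10.76 and 6.53 TPM, or 8.65 ± 2.99 TPM (SD, n = 2). Both were lower in replicate 2, with ratios of 0.731 (0.690 to 0.776) and 0.607 (0.554 to 0.665), and both stood above about the same share of protein-coding genes, 78.8% and 81.5%.

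Against the ligand, the type I receptor did not differ between the libraries beyond counting error. Acvr1b was 0.157 times Nodal in replicate 1 and 0.161 times in replicate 2, and the count ratio changed by a factor of 1.03 with an interval that includes 1 (0.962 to 1.10). The type II receptor moved from 0.202 to 0.172 times Nodal, with a factor of 0.853 for the counts (0.775 to 0.940). Acvr1b was listed with 1 transcript. Of the 2 transcripts of Acvr2b, Acvr2b-202 made up 86.71% of the gene's output in replicate 1 and 83.23% in replicate 2, and Acvr2b-201 made up 13.29% and 16.77%.

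The receptor-activated SMADs were the only 2 of the 10 genes with higher values in replicate 2. Smad2 (ENSMUSG00000024563, chromosome 18, 76241580 to 76310963, plus strand) stood at 5.72 and 9.65 TPM, or 7.69 ± 2.78 TPM (SD, n = 2), a ratio of 1.69 (1.55 to 1.83). Smad3 (ENSMUSG00000032402, chromosome 9, 63646767 to 63757994, minus strand) stood at 2.32 and 3.52 TPM, or 2.92 ± 0.849 TPM (SD, n = 2), a ratio of 1.52 (1.39 to 1.66). Smad2 exceeded Smad3 2.47-fold in replicate 1 and 2.74-fold in replicate 2, and the ratio of their counts changed by a factor of 1.00 (0.891 to 1.13). For Smad3 in replicate 2 the deposited interval of the level, 3.54 to 4.65 TPM, lay just above the deposited TPM itself.

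In the ratio of counts to their ligand, both SMADs differed more than any other member. Smad2 was 0.108 times Nodal in replicate 1 and 0.255 times in replicate 2, and Smad3 was 0.0436 and 0.0930 times Nodal. The count ratios changed by factors of 2.37 (2.17 to 2.59) for Smad2 and 2.36 (2.15 to 2.60) for Smad3. For Smad3 the TPM ratio to Nodal changed by slightly less than the lower end of its count interval. The order of the members did not hold once the median of genes of similar GC content was subtracted from each log2 difference. On that scale Nodal stood at -0.61, Smad2 at 0.30, Smad3 at 0.28 and Lefty2 at -1.58, so Lefty2 lay furthest from Nodal. The depth behind the SMADs was the lowest of the 10 genes in replicate 1, with 946 expected counts for Smad2 and 791 for Smad3.

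The transcripts of Smad2 kept their proportions. Smad2-205 made up 54.54% and 53.08% of the output and Smad2-201 16.74% and 18.78%. Smad2-203 made up 14.69% and 14.14%, on only 74.97 and 115.65 expected counts for a short transcript of 1305 bases. It lacks a coding exon of 90 bases (chr18:76286860-76286949) that the transcripts 205, 201 and 206 hold. Loss of this exon is known to give a SMAD2 protein that can bind DNA directly, as SMAD3 does. The deposited length of Smad2-205 was 2857 bases, against 8089 in GENCODE M21, so its level depends on the annotation used. For Smad3, Smad3-201 made up 87.74% and 98.44%, but 72.76% and 84.29% by the deposited posterior mean TPM. Smad3-205 made up 10.03% in replicate 1 on 10.62 expected counts and was at 0 in replicate 2. The share of Smad3-205 rests on too few counts to be compared.

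The feedback inhibitors Lefty1 and Lefty2 showed the lowest ratios of the 10 genes. Lefty1 (ENSMUSG00000038793, chromosome 1, 180935022 to 180938400, plus strand), which in the embryo limits Nodal signalling at the anterior side and the midline, stood at 137.59 and 65.50 TPM, or 102 ± 51.0 TPM (SD, n = 2). Lefty2 (ENSMUSG00000066652, chromosome 1, 180893108 to 180899103, plus strand), a target of Nodal in the left lateral mesoderm, stood at 42.71 and 16.06 TPM, or 29.4 ± 18.8 TPM (SD, n = 2). Lefty1 was 2.10-fold lower in replicate 2 and Lefty2 2.66-fold lower, with ratios of 0.476 (0.463 to 0.490) and 0.376 (0.359 to 0.394).

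Lefty1 and Lefty2 are neighbouring copies on the same strand, 35.918 kb apart. Over 1087 aligned coding bases they differed at 80 (92.6% identity), and the longest identical stretch was 140 bases, so reads from such stretches cannot be assigned to 1 of them by sequence. The differences were dense near the start: 30 of the 80 lay between coding bases 39 and 138. That window is shown with the differing bases in capitals, 5′ to 3′ on the plus strand of GRCm38. It lies at chr1:180935148-180935247 in Lefty1 and at chr1:180893222-180893321 in Lefty2.
Lefty1: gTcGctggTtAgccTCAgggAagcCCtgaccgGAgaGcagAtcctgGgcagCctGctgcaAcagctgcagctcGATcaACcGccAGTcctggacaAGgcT
Lefty2: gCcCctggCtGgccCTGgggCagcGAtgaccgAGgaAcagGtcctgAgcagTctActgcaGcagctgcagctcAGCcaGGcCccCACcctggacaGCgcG

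Together the 2 genes stood at 180.3 and 81.56 TPM. Their summed counts do not depend on how reads were split between them, and with TMM factors the log2 difference of that sum was -1.47, against -1.37 for Lefty1 and -1.69 for Lefty2 alone. Lefty1 exceeded Lefty2 3.22-fold in replicate 1 and 4.08-fold in replicate 2, and their count ratio changed by a factor of 1.26 (1.19 to 1.33). Against the ligand, Lefty1 went from 2.59 to 1.73 times Nodal and Lefty2 from 0.803 to 0.424 times Nodal. The count ratios to Nodal changed by factors of 0.667 (0.638 to 0.698) and 0.531 (0.502 to 0.563), so both antagonists were lower relative to Nodal in replicate 2.

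The spliced transcripts carried most of the output of both Lefty genes. Lefty1-201 made up 94.15% and 93.94%, and Lefty1-202, annotated as a retained intron, 5.85% and 6.06%. Lefty2-201 made up 88.6% and 89.17%, and the retained-intron transcript Lefty2-202 11.4% and 10.83%. The share of the retained-intron transcripts moved by less than 1 percentage point in both genes while the gene totals differed more than 2-fold.

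Smad7 (ENSMUSG00000025880, chromosome 18, 75367529 to 75395935, plus strand) encodes an inhibitory SMAD that acts on the receptors inside the cell. It stood at 14.12 and 12.52 TPM, or 13.3 ± 1.13 TPM (SD, n = 2), a ratio of 0.887 (0.842 to 0.934). On the TPM scale its ratio was the nearest to 1 of the 10 genes, but with TMM factors the log2 difference of Smad3 was slightly nearer to 0, at 0.43 against -0.44 for Smad7. Smad7 went from 0.265 to 0.331 times Nodal, with a factor of 1.27 for the counts (1.19 to 1.35), whereas the Lefty genes moved the other way, so the 3 feedback inhibitors did not change in proportion. Within the SMAD family, Smad7 was 2.47 times Smad2 in replicate 1 and 1.30 times in replicate 2.

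Smad7 was also the member whose transcript shares differed most between the libraries. Smad7-201 made up 48.93% and 54.5% of its output and Smad7-202 46.67% and 33.47%. Smad7-204 was at 0 in replicate 1 and at 8.72% in replicate 2, on 49.29 expected counts. All 6 members with several transcripts had the same leading transcript in both libraries, and the other 4 were listed with 1.

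**Figure D3:**
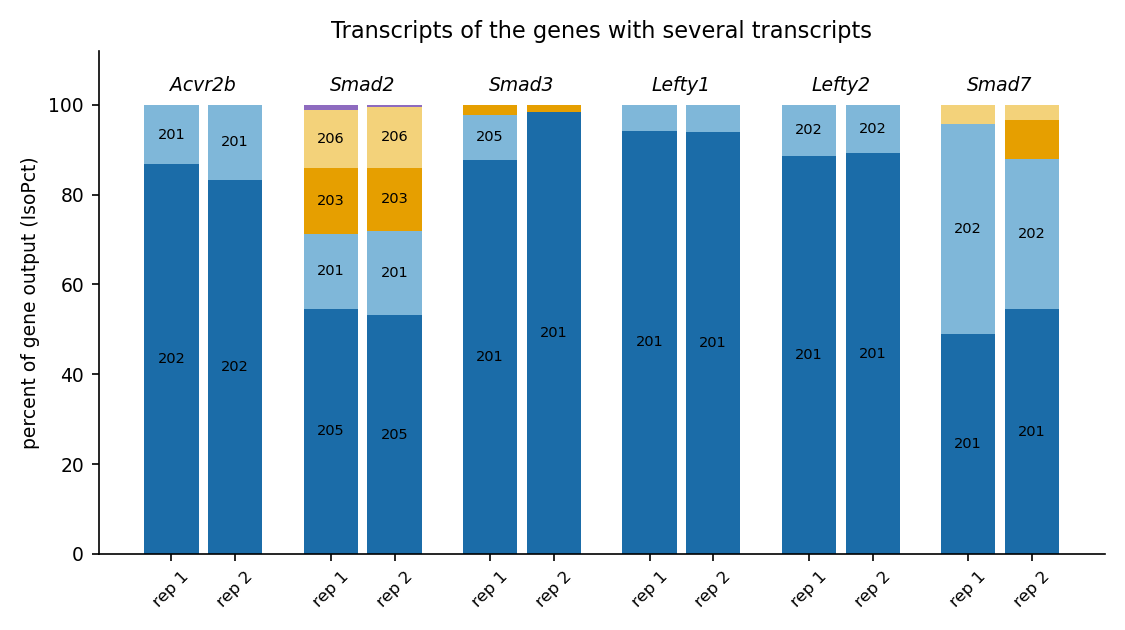
Percent of gene output by transcript for the 6 members with several transcripts, with 1 bar per library and the number of each transcript inside its segment where it has room. The leading transcript is the same in both libraries for each gene, and Smad7 shows the widest shift, with Smad7-202 at 46.67% and 33.47%.

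Across the 10 genes, 8 stood lower and 2 higher in replicate 2, and the median difference in log2(TPM + 1), replicate 2 minus replicate 1, was -0.44. Over the 11436 genes whose mean reached 1 TPM, called the genes tested below, the median was 0.23 and 3261 genes (28.5%) stood lower. Lefty1 and Lefty2 were the 2 members at least 2-fold lower, at -1.06 and -1.36, where 0.866% of all genes tested were. At least 2-fold higher were 0 of the 10, against 3.24% of all genes tested. With 1 library on each side no test of these differences exists, and members of 1 pathway in the same 2 libraries are not replicates.

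By role, the median difference was -0.35 for the ligands, -0.68 for the co-receptor, -0.52 for the receptors, 0.55 for the receptor-activated SMADs and -1.06 for the feedback inhibitors. Of all genes tested, 0.385% stood as low as Lefty2 or lower, 0.770% as low as Lefty1, 2.72% as low as Tdgf1, 3.09% as low as Acvr2b and 5.69% as low as Nodal. Acvr1b followed with 7.85%, Gdf3 with 14.6% and Smad7 with 18.1%. Smad2 stood among the higher values, with 14% of genes as high or higher, and Smad3 with 29.0%. Relative to the median of all genes, Smad3 was higher by 0.21 and Smad2 by 0.43, and Lefty2 stood at -1.59.

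**Figure D4:**
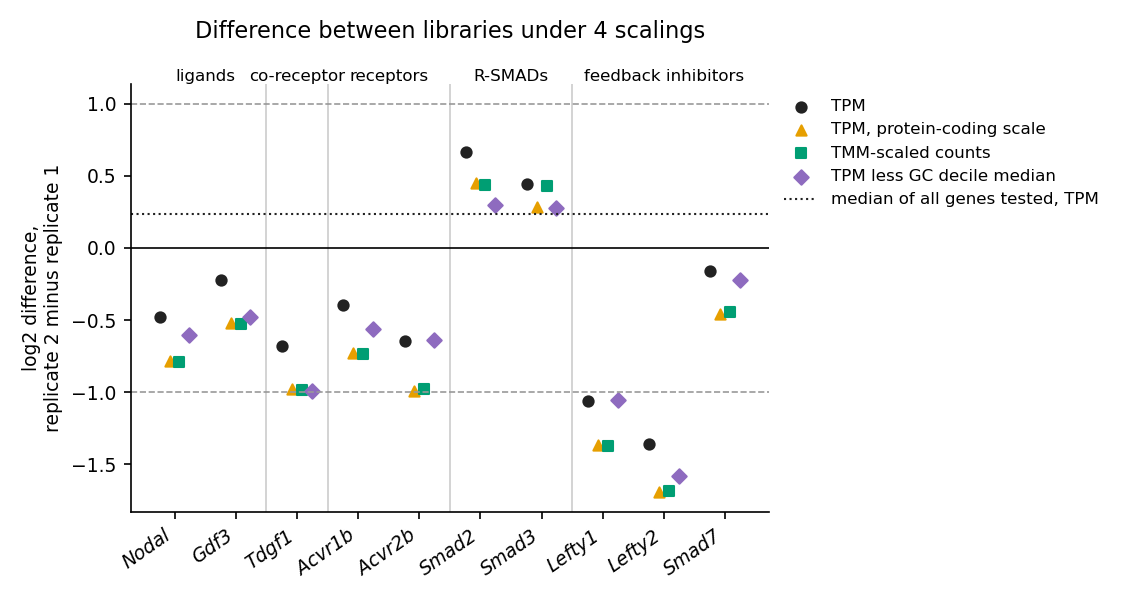
Difference in log2(TPM + 1), replicate 2 minus replicate 1, for each of the 10 genes by role (R-SMADs are receptor-activated SMADs), beside the log2 difference of TPM rescaled to protein-coding genes, of TMM-scaled counts, and of TPM less the median of genes of similar GC content. The dotted line is the median of all genes tested and the dashed lines mark 2-fold; the 2 Lefty genes lie below -1 and Smad2 and Smad3 above 0 on every scale drawn.

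The level of the median depended on the scale, but the direction of each member did not. With TMM factors the median of all genes was 0.01, 48.7% of genes stood lower, and the median of the 10 members was -0.76. Again Lefty1 and Lefty2 were at least 2-fold lower and 0 members higher, beside 2.81% and 1.76% of all genes tested. Tdgf1 and Acvr2b came close to that limit, at -0.99 and -0.98. Each member kept its direction under all 8 ways of scaling.

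The difference between the libraries also varied with base composition. From the lowest to the highest of 10 bins of GC content, the median difference of protein-coding genes went from 0.39 to -0.005. The members held 44.9% GC (Smad2) to 64.0% (Acvr2b), with Lefty1 at 58.6% and Lefty2 at 51.5%. Relative to genes of similar GC content, Smad2 was higher by 0.30 and Smad3 by 0.28, and the median of the members was -0.58. The part of base composition in the remaining differences was not tested.

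The wider pathway was listed under 7 headings with 46 genes, of which 45 matched. Of these, 25 reached 1 TPM in both libraries, where 46.3% of all protein-coding genes did. The same 46.3% stands beside the counts by heading below. Of the 28 whose mean reached 1 TPM, 7 stood lower and 21 higher in replicate 2, with a median of 0.25, near the 0.23 of all genes. Of all genes tested, 28.5% stood lower, and 48.7% with TMM factors. The counts at least 2-fold apart were 0 lower and 2 higher, beside 0.866% and 3.24% of all genes tested. With TMM factors the median was 0.04, with 11 of the 28 lower, among them Inhbb past 2-fold at -1.30.

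Nodal and Gdf3 stood above all 8 other ligands of the activin and TGF-beta branch, of which 3 reached 1 TPM in both libraries. Inhbb, a subunit of activin B, was the highest at 12.18 and 5.98 TPM, followed by Tgfb2 at 1.16 and 2.44 TPM. The activin A subunit gene Inhba, at 0.36 and 1.87 TPM, was at least 2-fold higher in replicate 2. The gene Mstn, which encodes myostatin, had 0 counts.

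Among 6 other receptors and co-receptors, 2 reached 1 TPM in both libraries. Tgfbr1, the type I receptor for TGF-beta, stood at 6.00 and 7.68 TPM, near Acvr1b, and Acvr2a, the other type II receptor for activin and Nodal, at 3.25 and 3.24 TPM, below Acvr2b. Acvr1c, the receptor kinase ALK7, had 0 counts in both libraries, where 3 counts would be 0.0122 and 0.0128 TPM, and the deposited intervals reached 0.190 and 0.203 TPM. Of the 3 proteases that cut ligand precursors, Pcsk6 (PACE4) was the highest at 21.13 and 16.98 TPM, then Furin at 2.96 and 4.09 TPM, and Pcsk5 was at 0.14 and 0.33 TPM.

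Other extracellular antagonists were far below the Lefty genes. The 2 highest of 4 were Fstl3, at 1.09 and 1.63 TPM, and Fst (follistatin, an activin antagonist), at 0.68 and 1.94 TPM. Cer1, a Nodal antagonist of the anterior visceral endoderm, had 0 counts in both libraries, where 3 counts would be 0.0244 and 0.0256 TPM. Lefty1 and Lefty2 were thus the antagonists of this list with levels above those of the receptors.

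Transcripts of all the listed components inside the cell passed the limit of 1 TPM, though some, such as Smad6, did so by little. The 8 shared and inhibitory SMADs and adaptors reached 1 TPM in both libraries, led by Smad4, the shared partner of the receptor-activated SMADs, at 10.52 and 13.70 TPM, and by the phosphatase gene Ppm1a at 10.11 and 12.87 TPM. The lowest was Smad6, at 1.31 and 2.02 TPM. The 8 nuclear partners and repressors did so too, led by the corepressor gene Drap1 at 23.13 and 28.44 TPM and by Skil (SnoN), a SMAD repressor, at 18.76 and 17.17 TPM, and the lowest was Trim33 at 3.48 and 4.30 TPM. Foxh1, the partner that recruits SMAD2 and SMAD4 to target genes, stood at 12.68 and 14.88 TPM and was picked out after its values were seen.

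Target genes that mark germ layers were low, in contrast to the Lefty genes. Only Otx2 of the 8 reached 1 TPM in both libraries, at 3.15 and 2.85 TPM. The lowest was Lhx1, at 0.02 TPM in both libraries. Below 1 TPM, Eomes stood at 0.21 and 0.75 TPM and T at 0.33 and 0.83 TPM. Both were thus higher in replicate 2, where Otx2 and the Lefty genes were lower. Eomes and T were picked out after their values were seen.

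**Figure D5:**
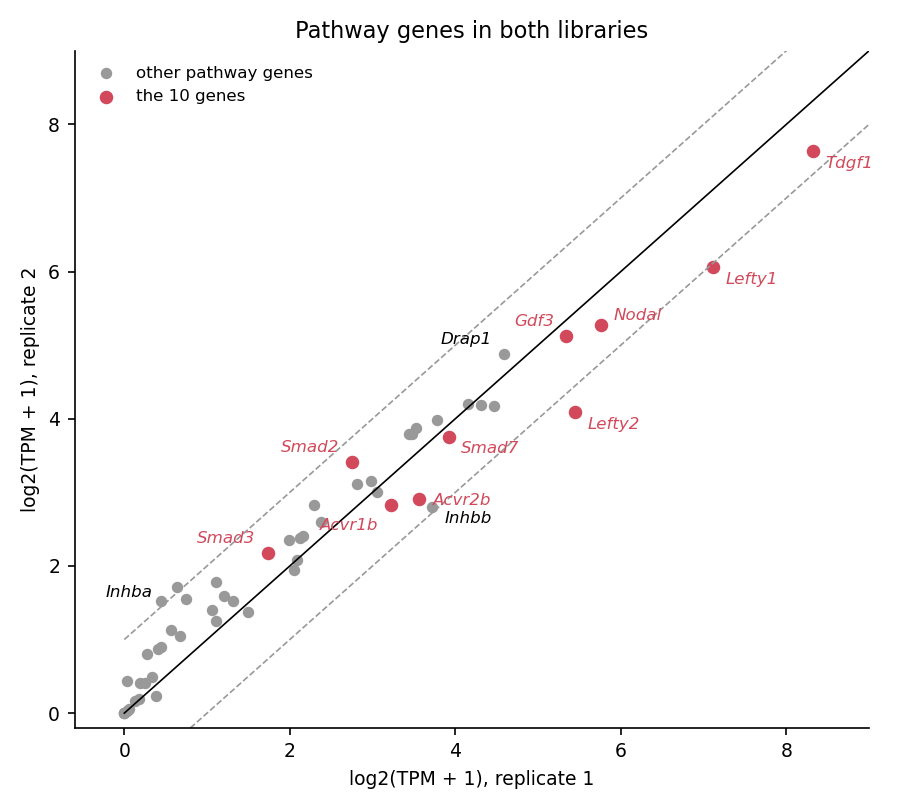
Level of the 10 genes and of the other pathway genes in replicate 1 (horizontal) and replicate 2 (vertical), as log2(TPM + 1); the solid line marks equal values and the dashed lines a 2-fold difference. Lefty1 and Lefty2 lie below the lower dashed line, and Inhba lies above the upper one.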

How the data were processed

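The deposited text file names mm10 and the M4 annotation. The aligner and the quantifier were not given in the sources used here. Per the file headers, the deposited tables give for each library an expected count, a TPM, an FPKM and an effective length, and for transcripts a percent of gene output. The authors' posterior mean TPM and interval bounds were used as deposited signal values, and the confidence level of those bounds was not given in the sources used here. Gene names, biotypes and positions were taken from GENCODE M21 (GRCm38, the assembly of mm10). A total of 26345 rows that name no gene, spike-ins included, held 1 and 15 counts and were left out.

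Levels are TPM, and differences are log2(TPM + 1), replicate 2 minus replicate 1, over genes whose mean reached 1 TPM, and low genes are understated. Ratios between libraries carry exact binomial 95% intervals of the counts, and changes of ratios between genes carry Wald intervals. Both cover counting error only, and 3 counts were taken as the limit that a count of 0 allows. Expected counts were rounded for these intervals and count ratios. They were also rounded for TMM factors (edgeR 4.0.16), size factors (DESeq2 1.42.0) and the counts scaled with them, both in R 4.3.3. Tables were handled in Python 3.11.15 with pandas 2.3.3 and numpy 2.4.6, intervals came from scipy 1.17.1, sequences were compared with Biopython 1.88 and plots drawn with matplotlib 3.10.9, and the difference and scaling steps were tested on simulated data. The members and lists were chosen with earlier results of these data known. Of each wider list the 2 highest genes and the lowest were named, and those at least 2-fold apart whose mean reached 1 TPM, as were the 2 highest transcripts of each member and others of interest. Gdf1 had no match, and 1 further gene that the rule names is not reported here. Alternatives were FPKM, posterior mean TPM, the lower bound of the interval, a pseudocount of 0.1, TPM limits of 0.5 and 5, TPM rescaled to nuclear protein-coding genes, TMM and DESeq2 scaling, subtraction of the median by GC content, no filter or a mean of 5 TPM, and each library alone. Sums over near-identical copies were added after seeing the data.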

Additional observations from a re-analysis of the deposited data

How the results depend on the processing

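All 10 members passed the TPM limit under each alternative except the limit of 5 TPM, which left 9. Of the wider pathway genes, 25 passed at 1 TPM and 12 at 5 TPM, and 35 passed at 1 TPM after rescaling to protein-coding genes. The median log2 difference of the members was -0.44, and became -0.59 with FPKM, -0.75 with TPM rescaled to protein-coding genes, -0.76 with TMM factors, -0.74 with DESeq2 size factors and -0.58 after subtraction of the median by GC content. The level of each member also moved with the unit, for example from 258 TPM to 447 FPKM for Tdgf1 and from 2.92 TPM to 4.95 FPKM for Smad3. The background share moved too. The share of genes at least 2-fold lower was 0.866%, against 0.254% with no filter, 2.81% with TMM factors and 2.51% with DESeq2 size factors, and the share higher was 3.24%, against 0.897%, 1.76% and 1.93%. With either library left out, 25 to 30 wider pathway genes passed. No paired analysis was possible because the series has 1 group. Depth limits the rare transcripts of Smad3 and Smad7, and the split of reads between Tdgf1 and its pseudogene cannot be checked in these tables.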

Other observations

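Genes of the BMP branch, which signals through Smad1, Smad5 and Smad9 in place of Smad2 and Smad3, were read beside the Nodal genes. The ligand gene Bmp4 stood at 13.56 and 5.62 TPM in replicates 1 and 2, a log2 difference of -1.14, or -1.47 with TMM factors. Its value in replicate 2 was thus lower by about as much as that of Lefty1. The Id genes, which BMP signalling is known to induce, stood the other way: Id1 at 14.33 and 28.23 TPM and Id3 at 15.23 and 29.19 TPM. Their differences were 0.93 and 0.90, or 0.65 and 0.74 with TMM factors. Bmpr1a, a type I receptor for BMP, stood at 9.73 and 9.76 TPM, and the lowest of the list was Smad9 at 0.05 and 0.12 TPM. Of the 10 genes of the list, 9 had a mean of 1 TPM or more, with 2 lower and 7 higher in replicate 2, or 3 lower with TMM factors. Over all genes tested the share lower was 28.5%, or 48.7% with TMM factors, so the TPM split lay near that of all genes.

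In the FGF-ERK list, the ligand gene Fgf4 stood at 51.43 and 33.93 TPM, a difference of -0.59, next to that of Nodal at -0.48. With TMM factors these were -0.90 and -0.79. Etv5, a transcription factor gene downstream of FGF, followed at 28.47 and 31.51 TPM, and the lowest by mean level was the feedback inhibitor gene Spry4 at 8.50 and 8.81 TPM. Dusp6, an ERK phosphatase gene known to be induced by ERK activity, stood at 8.03 and 15.18 TPM, a difference of 0.84, or 0.61 with TMM factors. Of the 8 genes, 3 stood lower and 5 higher in replicate 2, whereas 6 stood lower with TMM factors. Of all genes tested, 28.5% stood lower, and 48.7% with TMM factors. Bmpr1a and Dusp6 were picked out after their values were seen, and no cause of these differences was tested.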
